A study of Mus musculus with 18 samples.

Results

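The 10 genes described here encode proteins that hold neighbouring cells together: the classical cadherins Cdh1 and Cdh2, the catenins Ctnna1, Ctnnb1, Ctnnd1 and Jup, the adhesion molecule Epcam, and the tight junction genes Tjp1, Cldn6 and Cldn4. They were chosen by name, with earlier results of these data known. The Ensembl identifier of each count row was matched to their symbols, and all 10 were found among the 46078 genes counted. All 10 also passed the filter on low counts, which left 13438 protein-coding genes to test. The samples were mouse embryonic stem cells (mESCs) of the E14 line, which derives from a 129 mouse strain and is wild type in every group. In every group the cells had been grown for 24 h in serum with LIF, the cytokine that sustains mESC self-renewal, on StemBond polyacrylamide hydrogels coated with fibronectin. Stiffness was about 750 Pa for the soft and about 160 kPa for the stiff gels. On both the co-factor AHA, through which extracellular matrix (ECM) proteins are tethered and which so sets the adhesiveness, was at 16 mM (low), 48 mM (mid) or 80 mM (high). The 6 groups are called Soft16, Soft48, Soft80, Stiff16, Stiff48 and Stiff80 here, with 3 total RNA libraries in each, whose replicate numbers follow sample order within a group and pair no libraries between groups. Nothing in the labels says that the 3 libraries of a group came from separate cultures, so p-values measure only the spread between these libraries, which may be technical. All of the material is from 1 cell line, with no plastic or other control surface among these libraries.

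Cell-cell adhesion in an epithelium-like colony rests on layered junctions. In the adherens junction a classical cadherin spans the membrane and binds the same cadherin on the next cell. Inside the cell its tail holds p120-catenin (Ctnnd1) and either beta-catenin (Ctnnb1) or plakoglobin (Jup), and alpha-catenin (Ctnna1) joins that complex to actin. Beta-catenin is also the transcriptional effector of Wnt signalling, and plakoglobin is also a part of desmosomes. Tight junctions seal the space between cells with claudins, which scaffold proteins such as ZO-1 (Tjp1) anchor. E-cadherin (Cdh1) is the main cadherin of compact naïve mESC colonies and N-cadherin (Cdh2) that of many mesenchymal and neural cells, while Epcam and Cldn6 are known as abundant surface proteins of pluripotent cells.

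Libraries held 5850621 to 9290261 gene counts, and levels are given as CPM, protein-coding counts scaled to a common library size after TMM normalisation. The study's authors discarded outlier libraries with many ERCC spike-in reads. By that measure Soft80 replicate 1 stood apart, with 1.37% ERCC counts against 0.607 to 0.725% in the other 17, and it was left out, which leaves 8 soft and 9 stiff libraries. Of 10 stem cell markers all were detected in every library, with Pou5f1 (Oct4) at 513 to 598 CPM. Markers of other lineages covered a wide range, on stiff gels from a mean of 0.390 CPM (Elf5) to 736 CPM (Krt18) in the trophectoderm list and from 0.0752 CPM (Mesp1) to 48.8 CPM (Hand1) in the mesoderm list. With 1 coefficient per group, a gene was called at an edgeR quasi-likelihood adjusted p (Benjamini-Hochberg) under 0.05. The median gene differed by 0.00 (log2) between soft and stiff gels.

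Per exon length Cdh1 was the most abundant of the 10 genes and Ctnnd1, as counted, the least. Levels between genes are given as mean CPM per kb of merged exon over 17 libraries. Cdh1 stood at 183 CPM per kb (167 to 198), above 99.1% of the tested genes. Ctnna1 at 121 and Ctnnb1 at 119 followed, and their order changed from library to library, with Ctnna1 above Ctnnb1 in 9 of 17. Epcam stood at 80.8 CPM per kb. Tjp1 at 53.7 and Cldn4 at 53.2 could not be put in order either, Tjp1 being the higher in 9 of 17 libraries. Jup at 44.8 and Cldn6 at 37.1 came next, each above its lower neighbour in 17 of 17 libraries. Cdh2 was far below these genes at 6.22 CPM per kb, close to the middle of the tested genes (52.5th percentile), and Ctnnd1 lay at 2.99. The Ctnnd1 level, and so its place below Cdh2, is uncertain. Of its exon length 61.2% is shared with the same-strand gene model Gm28635, which is listed at 0 in every library. A read that lies in both genes may have been counted for neither. The plot of levels per exon length shows the large step between Cldn6 and Cdh2.

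**Figure D1:**
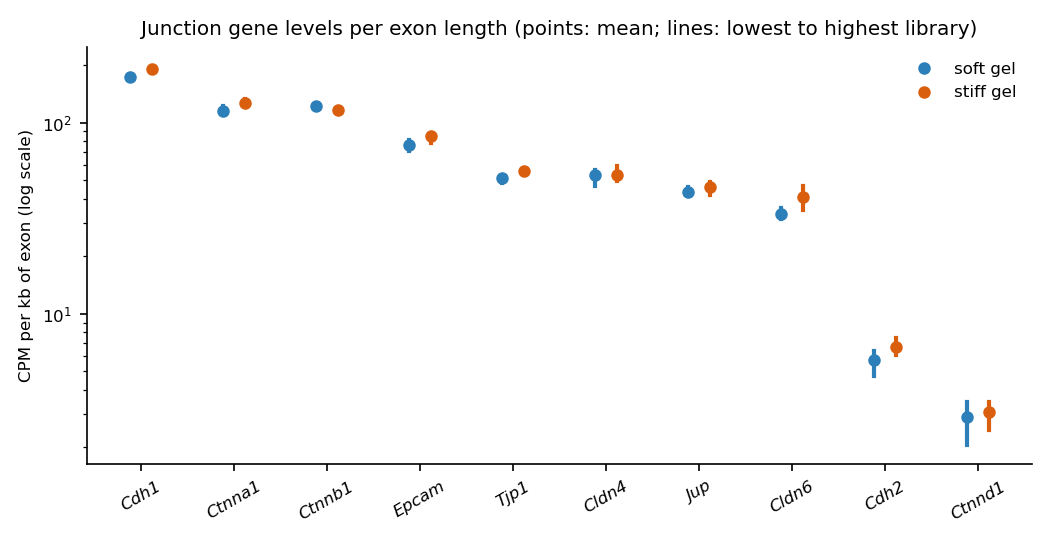
Mean CPM per kb of exon (log axis) of each junction gene over 8 soft (blue) and 9 stiff (orange) libraries, with lines from the lowest to the highest library. Cdh1 is highest in both, and Cdh2 and Ctnnd1 lie well below the other 8 genes.

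Most of the junction genes were expressed at a lower level on soft than on stiff gels, by small amounts. Averaged over AHA, 7 of the 10 genes were called lower on soft gels (Cdh1, Cdh2, Ctnna1, Jup, Epcam, Tjp1 and Cldn6), Ctnnb1 was called higher, and Ctnnd1 and Cldn4 were not called. Across all genes tested, 8.59% were called in this comparison, 4.82% as lower and 3.77% as higher. The 10 genes were chosen with earlier results of these data known, so setting their calls against these shares is no independent test. Smaller differences could be called in abundant genes, with an SE of 0.0224 for Cdh1 against 0.0912 for Ctnnd1. Most of the 10 genes lay at or above the level of Cldn6, at the 90.0th percentile of the tested genes. The median log2 difference of the 10 genes was −0.13 (−8.34%), and the largest was that of Cldn6, 18.8% lower on soft gels. Cdh1 and Tjp1 were lower in each soft library than in any stiff library, an order that 0.871% of all tested genes had, and for the other 8 genes the ranges overlapped. In these bulk samples fewer cells with a transcript and less of it per cell cannot be told apart.

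**Figure D2:**
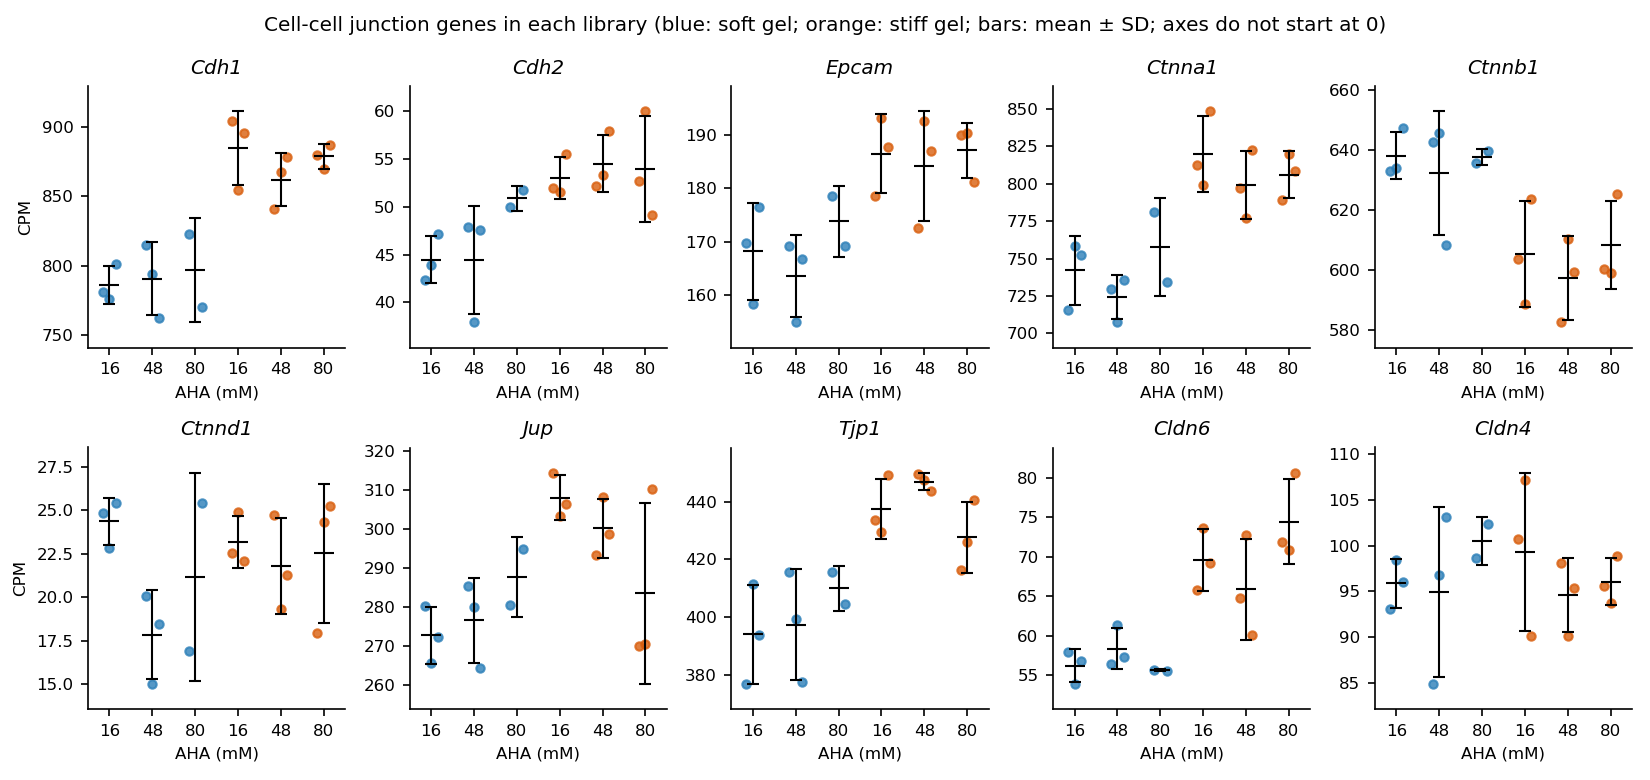
CPM of the 10 genes in every library of the 6 groups, against AHA concentration (mM), for soft (blue) and stiff (orange) gels, with mean ± SD as bars; each vertical axis has its own range and does not start at 0. Cdh1 and Tjp1 separate the 8 soft from the 9 stiff libraries, Ctnnb1 is higher on soft gels, and Cldn4 shows no step between the gels.

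Marker genes of other states differed between the same libraries. Of 10 mESC markers 7 were called higher on soft gels and 1, Utf1, lower, and their summed level ranged from 2316 to 2505 CPM in soft and from 2129 to 2321 CPM in stiff libraries. Of 7 tested trophectoderm markers 3 were called lower on soft gels, the keratins Krt8, Krt18 and Krt7, which are also general simple-epithelium genes, and 1, Tfap2c, was higher. The summed trophectoderm list, most of it keratin, ranged from 991 to 1215 CPM in soft and from 1274 to 1398 CPM in stiff libraries. Of its other members, Cdx2 lay between 1.63 and 6.08 CPM, Eomes between 7.87 and 14.2 CPM, Gata3 between 12.9 and 20.3 CPM and Tfap2c between 92.2 and 126 CPM. One gene was called lower in each of the fibroblast (Col1a1, of 6 tested), mesoderm (Hand1, of 6) and neural (Nes, of 5) lists. The summed fibroblast list spanned 119 to 200.1 CPM on soft and 173 to 244 CPM on stiff gels. Col1a1 made up most of that sum, at means of 109 CPM on soft and 155 CPM on stiff gels. Col1a2 averaged 21.3 and 23.8 CPM and Col3a1 9.59 and 9.87 CPM, Lum was at 0 in every soft library, and Dcn was below 1 CPM throughout. The summed mesoderm list spanned 61.8 to 87.8 against 75.9 to 91.2 CPM, and the neural list 299 to 367 against 364 to 393 CPM. Of 9 primitive endoderm markers Lama1 was called higher and Col4a1 lower, at sums of 485 to 617 against 509 to 584 CPM. The part of these markers in the junction gene differences was not tested.

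Cdh1 (ENSMUSG00000000303, chromosome 8, 106603351 to 106670246 on the plus strand of GRCm38) encodes E-cadherin. Its level was 763 CPM in the lowest, 788 in the median and 823 in the highest of 8 soft libraries. In the 9 stiff libraries it was 841, 878 and 904 CPM. The gap between the highest soft and the lowest stiff library separated both sets completely. The log2 difference averaged over AHA was −0.15 (SE 0.0224, edgeR adjusted p = 1.17e-07), or 9.60% lower on soft gels, and it was called under each alternative scaling, filter and left-out library. Soft80 replicate 1, which was outside the fit, lay on the soft side at 763 CPM when all 18 libraries were scaled together.

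Cdh2 (ENSMUSG00000024304, chromosome 18) encodes N-cadherin. Soft libraries ranged from 37.9 to 51.8 CPM with a median of 47.4, and stiff libraries from 49.1 to 60.0 CPM with a median of 52.6. Cdh2 was below the whole stiff range in 6 of 8 soft libraries, and both Soft80 libraries overlapped with the lowest stiff one. On the log2 scale the difference was −0.21 (SE 0.0600, adjusted p = 0.0137), in the same direction as that of Cdh1. The lowest library, Soft48 replicate 2, carried the call, since without it the difference was −0.17 and adjusted p = 0.0595.

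Epcam (ENSMUSG00000045394, chromosome 17, 87635979 to 87651129, plus strand) encodes a homophilic adhesion molecule of epithelial and pluripotent cells. Soft libraries ranged from 155 to 179 CPM (median 169) and stiff libraries from 173 to 193 CPM (median 188). In 6 of 8 soft libraries Epcam was below every stiff library. The log2 difference was −0.14 (SE 0.0343, adjusted p = 0.00197), and the left-out soft library had the lowest level of all at 148 CPM.

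Among the catenins, the alpha-catenin gene Ctnna1 (ENSMUSG00000037815, chromosome 18) followed Cdh1. It measured 707 to 781 CPM on soft gels (median 735) and 777 to 848 CPM on stiff gels (median 809), so that only the highest soft library reached into the stiff range. This was a log2 difference of −0.12 (SE 0.0227, adjusted p = 1.18e-05), or 8.27% lower on soft gels.

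Ctnnb1 (ENSMUSG00000006932, chromosome 9, 120929216 to 120960507, plus strand), the beta-catenin gene, was the only one of the 10 called higher on soft gels. Soft libraries ranged from 608 to 647 CPM (median 638) and stiff libraries from 582 to 625 CPM (median 600.4). Only the lowest soft library, Soft48 replicate 3 at 608 CPM, fell below some of the stiff ones. Ctnnb1 differed by 0.07 on the log2 scale (SE 0.0235, adjusted p = 0.0264), which is 5.32% higher. This call was lost without any 1 of Soft48 replicate 2, Soft80 replicate 2, Soft80 replicate 3, Stiff16 replicate 2 or Stiff80 replicate 2, at adjusted p = 0.0506 to 0.0708, while the difference stayed at 0.07 in each. Of the Ctnnb1 exon length 14.6% overlaps Ulk4 on the opposite strand. Ulk4 averaged only 5.87 CPM and was not called (adjusted p = 0.679), and whether counting used the strand is not given in the sources used here.

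Jup (ENSMUSG00000001552, chromosome 11, 100368958 to 100397763, minus strand), which encodes plakoglobin, the closest relative of beta-catenin, was called in the opposite direction. Soft libraries ranged from 265 to 295 CPM (median 280.2) and stiff libraries from 270.0 to 314 CPM (median 303). Among the stiff gels, Stiff80 replicates 1 and 2 (270.0 and 270.5 CPM) and Stiff48 replicate 1 (293 CPM) lay within the soft range, and the other 6 stiff libraries lay above it. Jup differed by −0.09 on the log2 scale (SE 0.0290, adjusted p = 0.0263). The call was lost with DESeq2 (adjusted p = 0.0600). It was also lost without any 1 of Soft16 replicate 2, Soft16 replicate 3, Soft48 replicate 3, Soft80 replicate 2, Stiff16 replicate 1, Stiff48 replicate 2 or Stiff80 replicate 3, at adjusted p = 0.0520 to 0.139 and a difference of −0.09 to −0.07.

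Ctnnd1 (ENSMUSG00000034101, chromosome 2, 84600071 to 84650765, minus strand), the p120-catenin gene, ranged from 15.0 to 25.4 CPM on soft and from 18.0 to 25.3 CPM on stiff gels. These ranges almost coincide. Ctnnd1 differed by −0.10 on the log2 scale, with a 95% interval of −0.28 to 0.08 (adjusted p = 0.622), so a change of the size seen for Cdh1 was within the interval. The Soft80 libraries moved this value most, to −0.01 without replicate 2 and −0.20 without replicate 3. Its spread within a group was the widest of the 10 genes, at a median coefficient of variation of 13.5% against 2.61% for Cdh1.

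Tjp1 (ENSMUSG00000030516, chromosome 7, 65296165 to 65527781, minus strand) encodes the tight junction scaffold ZO-1. It measured 377 to 416 CPM on soft gels (median 402) and 416 to 449.7 CPM on stiff gels (median 441). The sets did not overlap, but the highest soft (415.5 CPM) and the lowest stiff library (416.4 CPM) nearly met. The log2 difference was −0.13 (SE 0.0260, adjusted p = 0.000130), or 8.42% lower on soft gels.

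The claudin genes differed from each other. Cldn6 (ENSMUSG00000023906, chromosome 17, 23679249 to 23682446, plus strand) had the largest difference of the 10 genes. It measured 53.9 to 61.4 CPM on soft gels (median 56.6) and 60.1 to 80.6 CPM on stiff gels (median 70.8), and 7 of 8 soft libraries were below every stiff library. Its log2 difference was −0.30 (SE 0.0534, adjusted p = 6.09e-06). Cldn4 (ENSMUSG00000047501, chromosome 5, 134945119 to 134946934, minus strand) measured 84.9 to 103 CPM on soft gels (median 97.6) and 90.1 to 107 CPM on stiff gels (median 95.6). Its log2 difference was 0.01 with a 95% interval of −0.08 to 0.10 (adjusted p = 0.948), which leaves out differences of the size of that of Cdh1. In the left-out soft library Cldn6 was at 50.4 CPM, below all the others, and Cldn4 at 100.3 CPM was within their range.

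**Figure D3:**
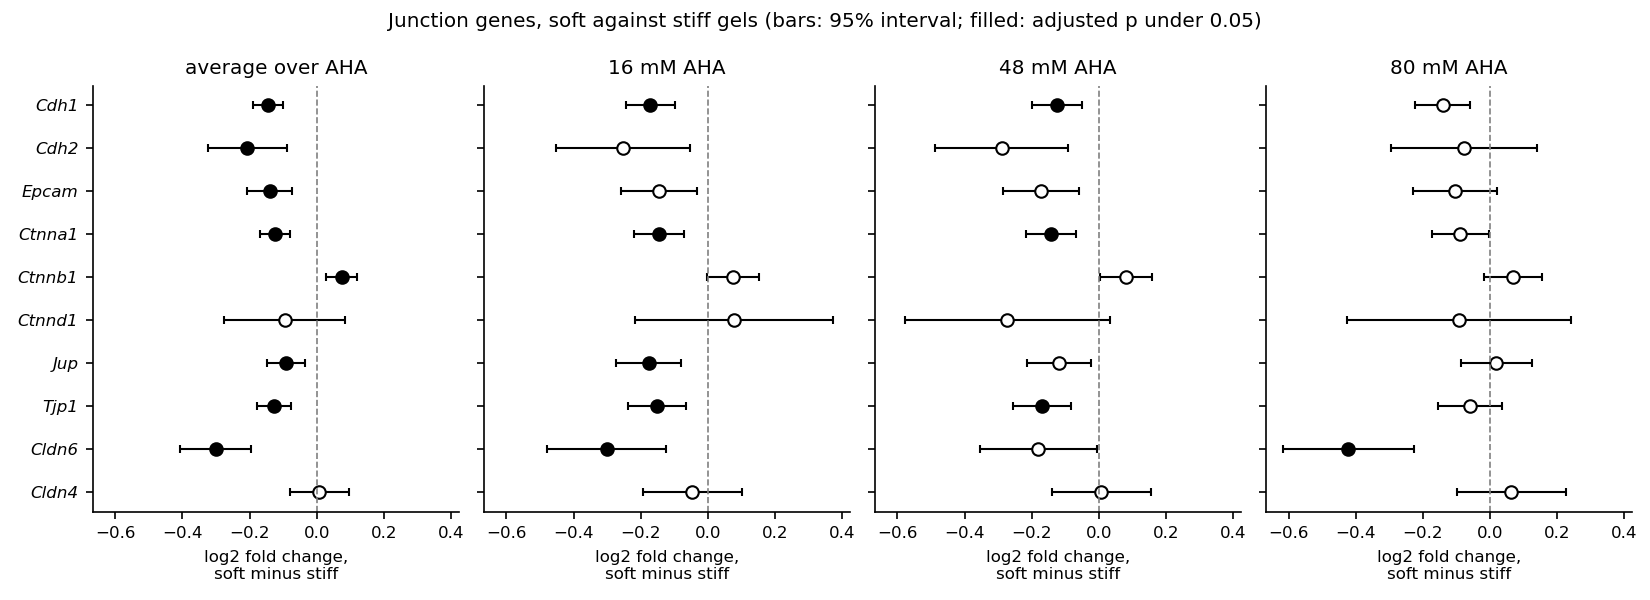
Log2 fold change of each junction gene, soft minus stiff, averaged over AHA and at each AHA concentration, with 95% intervals; filled points were called at adjusted p under 0.05. Averaged over AHA 8 genes are filled, with Ctnnb1 alone to the right of 0; at 80 mM Cldn6 alone is filled.

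Sequence upstream of the RefSeq start (GRCm38.p6) was compared for 7 of the 10 genes, in 9 windows of 250 bases, and those of Cdh1, Cdh2 and Ctnna1 were not used here. The letters searched, on both strands, were the E-box CAGGTG, which Snail and Zeb repressors of epithelial genes are known to bind, the TEAD motif CATTCC, the GC box GGGCGG of Sp-family factors, and the palindrome AACCGGTT of grainyhead factors such as Grhl2. No matches of different motifs overlapped. Both windows of Ctnnb1 share a stretch of sequence, and the GC boxes in it were counted in each. The E-box letters stood in 3 of the 9 windows, those of Epcam, Cldn6 and Cldn4, and in 17.2% of all 32851 windows of the table. The GC box was in 7 of 9 windows, of 6 genes (32.7% of all windows), and neither the TEAD letters (12.6%) nor the grainyhead letters (0.116%) were in any. The 4 windows shown are those with an E-box and the first of Ctnnb1, the gene that was higher on soft gels. They run 5′ to 3′ on the gene's strand, end at the base before the RefSeq start except for Cldn6, and capitals mark the E-box.
Epcam, chr17:87635729-87635978, plus strand, between annotated genes: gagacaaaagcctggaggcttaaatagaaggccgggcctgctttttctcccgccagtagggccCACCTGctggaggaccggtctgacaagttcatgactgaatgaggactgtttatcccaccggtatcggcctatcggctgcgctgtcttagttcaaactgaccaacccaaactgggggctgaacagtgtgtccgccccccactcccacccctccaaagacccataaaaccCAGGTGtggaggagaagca
Cldn4, chr5:134946935-134947184, minus strand, between annotated genes: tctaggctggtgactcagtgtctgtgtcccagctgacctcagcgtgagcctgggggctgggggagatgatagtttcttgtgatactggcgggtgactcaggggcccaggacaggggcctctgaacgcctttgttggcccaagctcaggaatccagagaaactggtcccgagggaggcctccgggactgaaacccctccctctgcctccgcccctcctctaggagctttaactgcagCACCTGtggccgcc
Cldn6, chr17:23679115-23679248, plus strand, between annotated genes and ending where the annotated first exon starts: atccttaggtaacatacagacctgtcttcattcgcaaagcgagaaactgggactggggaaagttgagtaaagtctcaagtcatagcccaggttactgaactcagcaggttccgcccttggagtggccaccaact
Ctnnb1, chr9:120933150-120933399, plus strand, inside the annotated gene but in no exon: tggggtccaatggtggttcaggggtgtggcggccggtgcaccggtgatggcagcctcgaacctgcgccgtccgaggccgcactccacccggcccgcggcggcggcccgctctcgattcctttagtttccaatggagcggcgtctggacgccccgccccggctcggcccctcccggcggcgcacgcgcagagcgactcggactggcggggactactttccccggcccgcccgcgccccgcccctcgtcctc
Epcam held the E-box letters 187 and 19 bases before its start and Cldn4 14 bases before it. In Cldn6 they lay 93 bases before the RefSeq start, within the annotated exon and so outside the stretch shown. Of these 3 genes Epcam and Cldn6 were called lower on soft gels and Cldn4 was not called, so the letters were shared by genes that differed and one for which no difference was seen. A match of letters is a description and not a binding site.

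At low AHA (16 mM), where ECM tethering is weakest, the soft and stiff gels differed in 5 junction genes, each lower on soft gels: Cdh1, Ctnna1, Jup, Tjp1 and Cldn6. Of all genes 3.04% were called. Cdh1 was at 781, 776 and 801 CPM in Soft16 and at 904, 855 and 895 CPM in Stiff16, a log2 difference of −0.17 (SE 0.0373, adjusted p = 0.000916). Jup was at 280.2, 266 and 272 CPM against 314, 303 and 306 CPM, a difference of −0.18 (SE 0.0485, adjusted p = 0.0168). Cldn6 was at 58.0, 53.9 and 56.8 CPM against 65.8, 73.7 and 69.2 CPM, a difference of −0.30 (SE 0.0898, adjusted p = 0.0360). In each of these 3 genes all Soft16 libraries lay below all Stiff16 libraries. That order held for 7 of the 10 genes, which include Cdh2 and Epcam, and for 9.6% of all genes, and Ctnnb1 had the opposite order, as did 8.65% of all genes. The call of Ctnna1 (−0.14, adjusted p = 0.0104) was lost without Soft16 replicate 1 or Stiff16 replicate 3, at adjusted p = 0.167 to 0.174 and a difference of −0.12. That of Tjp1 (−0.15, adjusted p = 0.0269) was lost without any 1 of 4 libraries, Soft16 replicates 1 and 3 and Stiff16 replicates 1 and 3. Adjusted p was then 0.0707 to 0.266, at a difference of −0.16 to −0.12. The call of Jup was lost without Soft16 replicate 2 or 3 or Stiff16 replicate 1 or 3 (adjusted p = 0.0615 to 0.132, difference −0.18 to −0.16). That of Cldn6 was lost without any 1 Soft16 library or Stiff16 replicate 2 or 3 (adjusted p = 0.0789 to 0.183, difference −0.32 to −0.26). It was also lost with no low-count filter (adjusted p = 0.0508, difference −0.30). Cdh1 was called without each library.

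At mid AHA (48 mM) 3 junction genes were called, all lower on soft gels: Cdh1, Ctnna1 and Tjp1. Of all genes 2.86% were called. Tjp1 was at 416, 399 and 377 CPM in Soft48 and at 449.7, 447 and 444 CPM in Stiff48, a log2 difference of −0.17 (SE 0.0432, adjusted p = 0.00908). Ctnna1 was at 729.7, 707 and 735 CPM against 797, 777 and 822 CPM, a difference of −0.14 (SE 0.0378, adjusted p = 0.0153). Cdh1 was at 815, 794 and 763 CPM against 841, 867 and 878 CPM, a difference of −0.12 (SE 0.0372, adjusted p = 0.0395). Soft48 libraries were below Stiff48 libraries without overlap in these genes and in Cdh2, Jup and Epcam, 6 of 10, and in 9.48% of all genes. The Cdh1 call at mid AHA was close to the threshold: it was lost with 5 of 8 alternative settings and without any 1 of 8 libraries (Soft16 replicates 2 and 3, Soft48 replicates 2 and 3, Stiff16 replicate 3 and all 3 Stiff48 libraries), at adjusted p up to 0.235. The difference stayed at −0.12 under those settings and was −0.14 to −0.10 without those libraries. The call of Ctnna1 was lost without Soft48 replicate 1 or 2 or Stiff48 replicate 1 or 3 (adjusted p = 0.0611 to 0.143, difference −0.14 to −0.12). That of Tjp1 was lost without Soft48 replicate 3 or Stiff48 replicate 1 or 2 (adjusted p = 0.0515 to 0.134, difference −0.16 to −0.13).

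At high AHA (80 mM), with 2 soft libraries in the fit, Cldn6 alone was called, and 0.841% of all genes were. Cldn6 was at 55.7 and 55.5 CPM in Soft80 and at 71.8, 70.8 and 80.6 CPM in Stiff80. The log2 difference was −0.42 (SE 0.0989, adjusted p = 0.00930), and the call was lost without Soft80 replicate 2, Soft80 replicate 3 or Stiff80 replicate 3, at adjusted p = 0.0953 to 0.123. Cdh1 was at 823 and 770.2 CPM against 879.6, 869 and 887 CPM, a difference of −0.14 (SE 0.0416, adjusted p = 0.0816). With all 18 libraries Cdh1 was also called at high AHA (−0.16, adjusted p = 0.00327), in a fit that called 2.58% of all genes. It was called in 1 of the 17 fits with a library left out, that without Soft80 replicate 2 (−0.20, adjusted p = 0.0381), and had −0.09 (adjusted p = 0.608) without Soft80 replicate 3. In both of these fits the lone Soft80 library is assumed to vary like the other groups. The Soft80 libraries lay below the Stiff80 libraries in 5 of 10 genes (Cdh1, Ctnna1, Epcam, Tjp1 and Cldn6) and in 12.4% of all genes. Ctnnb1 had the opposite order, as did 12.3% of all genes. Jup was not called here, at 280.5 and 295 CPM against 270.0, 270.5 and 310.4 CPM, a difference of 0.02 with a 95% interval of −0.09 to 0.12. The sign of this uncalled difference turned with all 18 libraries (−0.07), where Soft80 replicate 1 was at 236 CPM, and without Soft80 replicate 3, Stiff80 replicate 1 or Stiff80 replicate 2 (−0.02 to −0.01).

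The amount of tethering co-factor by itself moved none of the 10 genes past the threshold. On soft gels 0 genes of the 10 were called in any contrast of AHA concentrations, by edgeR or by DESeq2. Of all genes 0% were called for mid against low (820 genes at an unadjusted p under 0.05, and 0 called by DESeq2). With only the groups compared, 8 genes were called there. The shares were 0.253% for high against low and 0.067% for high against mid AHA. At an unadjusted p under 0.05, 1 of the 10 genes passed in the first of these contrasts, Ctnnd1, against 6.1% of all genes. In both others 0 passed, against 8.51% and 6.81% of all genes. Ctnnd1 was at 24.9, 22.8 and 25.4 CPM in Soft16 and at 20.1, 15.0 and 18.5 CPM in Soft48, a log2 difference of −0.44 (SE 0.151, adjusted p = 0.524). The largest positive difference between high and low AHA on soft gels was that of Cdh2, at 44.5 ± 2.48 CPM in Soft16 (SD, n = 3) and 50.9 ± 1.28 CPM in Soft80 (SD, n = 2), a log2 difference of 0.19 with a 95% interval of −0.03 to 0.41.

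On stiff gels 0 of the 10 genes were called as well, by either tool, against 0% of all genes for mid against low (671 at an unadjusted p under 0.05, and 0 called by DESeq2) and 0.00744% for each comparison with high AHA. At an unadjusted p under 0.05, 0 of the 10 genes passed for mid against low (4.99% of all genes), 1 for high against low (Jup, 6.04%) and 1 for high against mid (Cldn6, 5.83%), counts near the shares of all genes. Jup was at 308 ± 5.72 in Stiff16, 300.2 ± 7.49 in Stiff48 and 284 ± 23.2 CPM in Stiff80 (SD, n = 3 each), a log2 difference of −0.12 between high and low AHA that was not called (adjusted p = 0.693). Cldn6 was at 65.9 ± 6.36 CPM in Stiff48 and 74.4 ± 5.38 CPM in Stiff80 (SD, n = 3 each), a difference of 0.17 (adjusted p = 0.854). The interaction test, of whether the effect of stiffness was the same at all 3 AHA concentrations, called 0 of the 10 genes and 0.0298% of all genes. Jup alone had an unadjusted p under 0.05 in that test (adjusted p = 0.723), as did 6.71% of all genes. The calls at low, mid and high AHA listed above are therefore not shown to differ from each other.

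Within-library ratios remove the scaling between libraries, and 3 of them were tested over 8 soft and 9 stiff libraries by two-sided exact permutation, adjusted over the 3. The ratio of plakoglobin to beta-catenin transcripts, the alternative partners of the cadherin tail, was lower on soft gels. Its log2 value (Jup over Ctnnb1) averaged −1.19 ± 0.0444 over the 8 soft libraries and −1.02 ± 0.0763 over the 9 stiff ones (mean ± SD), a difference of −0.17 (exact permutation p = 0.000494, adjusted p = 0.000987). In 7 of 8 soft libraries it was below every stiff library, and Stiff80 replicates 1 and 2 at −1.15 were the nearest to the soft ones. The ratio of the claudins (Cldn4 over Cldn6) was higher on soft gels, at 0.76 ± 0.109 against 0.47 ± 0.138, a difference of 0.29 (exact permutation p = 0.000658, adjusted p = 0.000987), with 6 of 8 soft libraries above every stiff library. Both tests use genes of which at least one had been called above, so they restate those differences on a scale free of library scaling.

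The ratio of N-cadherin to E-cadherin transcripts, by contrast, did not pass the test. Cdh2 over Cdh1 averaged −4.10 ± 0.147 over the 8 soft libraries and −4.02 ± 0.0955 over the 9 stiff ones (mean ± SD), a difference of −0.08 (exact permutation p = 0.203, adjusted p = 0.203). Soft and stiff libraries overlapped over most of their range, from −4.38 to −3.89 against −4.17 to −3.85. Cdh1 exceeded Cdh2 in counts in every library. Another ratio, Ctnnb1 over Cdh1, was looked at after its values were seen and is given without a test: it was −0.31 ± 0.0326 on soft and −0.54 ± 0.0244 on stiff gels, and all 8 soft libraries were above all 9 stiff ones.

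**Figure D4:**
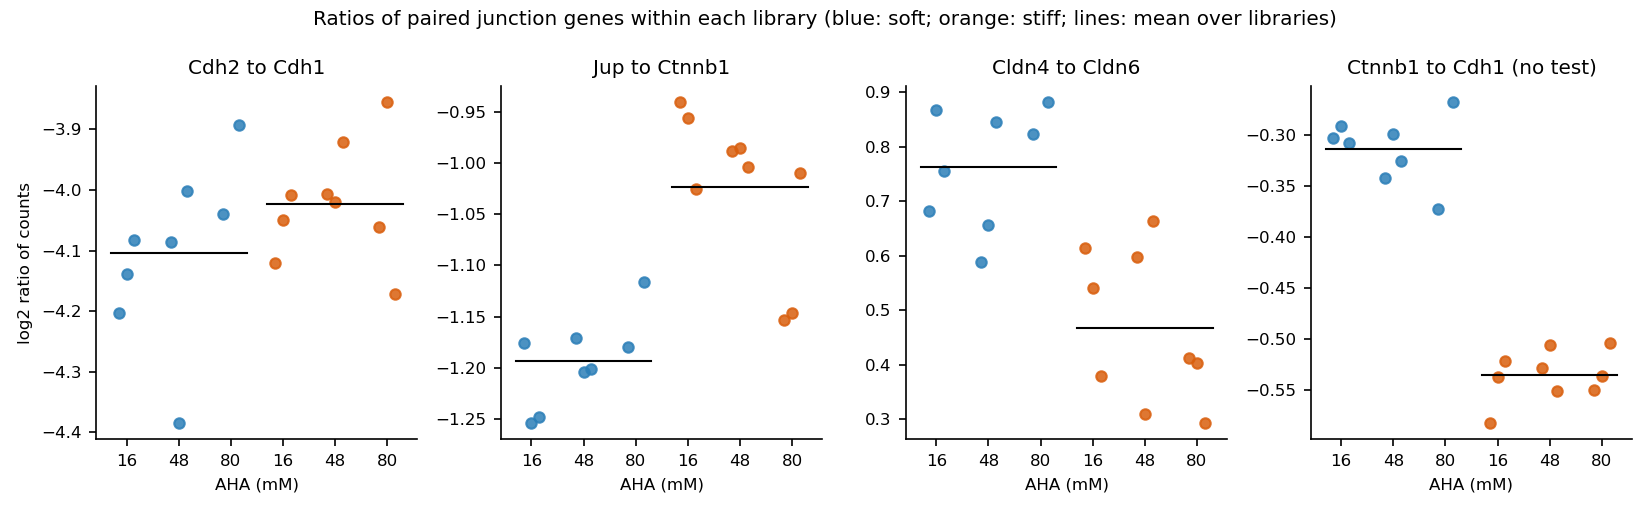
Log2 ratio of counts of paired junction genes within each library, against AHA concentration (mM) on soft (blue) and stiff (orange) gels, with lines at the mean of the soft and of the stiff libraries; vertical axes differ. Jup to Ctnnb1 is lower on soft gels, where only Soft80 replicate 3 lies above 2 Stiff80 libraries, Cldn4 to Cldn6 is higher on soft gels, and Cdh2 to Cdh1 overlaps.

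Beyond the 10 genes, 7 lists with 138 other genes were examined, 6 lists of junction and polarity genes and 1 of mostly transcription regulators, and 122 of these genes were tested. In the soft minus stiff comparison averaged over AHA 23 were called lower on soft gels (18.9%, against 4.82% of all genes) and 8 higher (6.56%, against 3.77%). Their median log2 difference was −0.04. As with the 10 genes, the lower calls outnumbered the higher ones. These lists too were drawn up with earlier results of these data known, so the shares are no independent test. Levels of list genes are given as mean ± SD over the 8 soft and the 9 stiff libraries, soft first.

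Desmosomes, the spot-like junctions anchored to keratin filaments, had 4 of 9 tested genes lower and 0 higher, with a median of −0.21. Dsp (desmoplakin, the link to keratin) was at 371 ± 26.4 CPM on soft and 447 ± 24.8 CPM on stiff gels, a log2 difference of −0.26 (adjusted p = 1.20e-13). Pkp2 (plakophilin 2) had −0.33 and Perp −0.22, and Ppl (periplakin) −0.24. The keratins Krt8 and Krt18 were lower in the same libraries, as given above. Of the tight junction list, 5 of 22 tested genes were lower and 1 higher, with a median of −0.11. Cgn (cingulin, a junction-to-cytoskeleton adaptor) was at 143 ± 8.47 against 177 ± 6.79 CPM (−0.30, adjusted p = 6.22e-12), and Cgnl1, its relative, had −0.20. Ybx3 was lower too. Jam2, a junctional adhesion molecule, was higher at 95.02 ± 6.78 against 76.0 ± 5.15 CPM (0.34, adjusted p = 3.43e-09).

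Genes that connect junctions to actin had 7 of 24 tested lower and 3 higher, with a median of −0.07. Pdlim7 (a LIM protein of actin bundles) was at 176 ± 11.3 against 229.6 ± 18.8 CPM (−0.38, adjusted p = 2.30e-18). Vcl (vinculin, which binds alpha-catenin under tension and is also a part of focal adhesions) was at 258 ± 13.0 against 304 ± 13.5 CPM (−0.23, adjusted p = 8.56e-11), with 25.5% of its exon length overlapped by Ap3m1 on the opposite strand. Shroom2 had −0.27. Afdn (afadin), Ajuba, Nectin2 and Ctnnal1 were lower too, and Lima1, Arvcf and Plekha7 were higher. The list therefore held called genes in both directions.

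Other cadherins and their regulators had few calls, with 1 of 20 tested genes lower (Pcdh1, −0.23) and 1 higher (Celsr3, 0.36) and a median of −0.03. Gap junction genes had 1 of 7 lower and 2 higher, with a median of 0.10. Gja1 (connexin 43) was at 327 ± 15.9 against 357 ± 13.9 CPM (−0.12, adjusted p = 0.000793), while Gjc1 had 0.24. Of 20 polarity genes 3 were lower (Llgl2 −0.22, Patj −0.19 and Pard6b −0.19) and 0 higher, with a median of 0.00. Of 20 tested genes in the list of regulators of epithelial junction genes, 2 were lower and 1 higher. Grhl2, an activator of epithelial junction genes that include Cdh1, was at 80.6 ± 5.31 against 93.0 ± 5.22 CPM (−0.21, adjusted p = 0.000367). Lsr, which is in that list but encodes a membrane protein of tricellular tight junctions, had −0.29, with 44.7% of its exon length overlapped by genes on the opposite strand, and Klf4, which is also among the mESC markers above, was higher (0.26, adjusted p = 2.41e-07). The repressors Snai1, Snai2, Zeb1 and Zeb2 were not called (adjusted p = 0.714, 0.686, 0.393 and 0.0745). Their differences were −0.12, 0.26, 0.14 and −0.24 (SE 0.149, 0.288, 0.0883 and 0.0870). The grainyhead genes Grhl1 (0.14, adjusted p = 0.507) and Grhl3 (0.11, adjusted p = 0.466) were not called either.

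**Figure D5:**
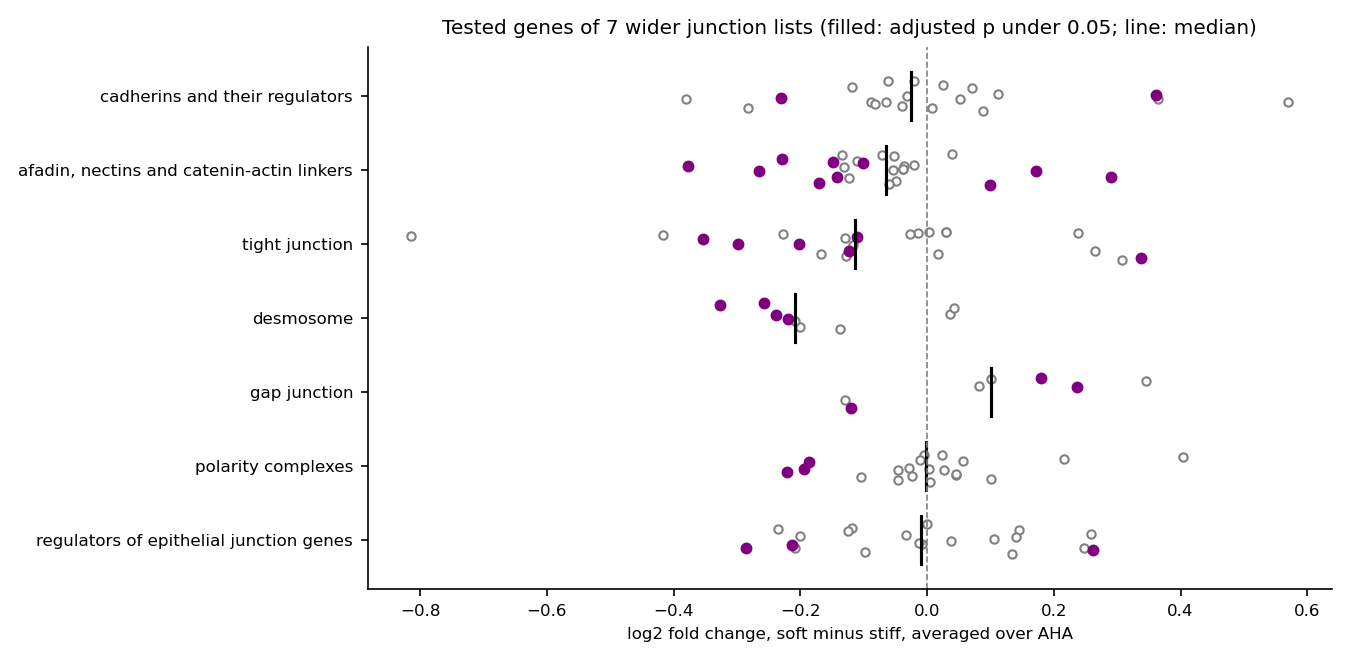
Log2 fold change, soft minus stiff averaged over AHA, of every tested gene of the 7 wider lists; filled points were called at adjusted p under 0.05 and black lines are list medians. Called desmosome and polarity genes all lie left of 0, while gap junction and actin-linker genes lie on both sides.

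The genes whose log2 CPM was most like that of Cdh1 over the 17 libraries, among 9225 genes with a mean of at least 10 CPM, were Slc16a3, a lactate transporter (r = 0.95), Tmcc3 (r = 0.93) and Tgm1, a transglutaminase (r = 0.93). Since the soft and stiff libraries form separate sets for Cdh1, the correlation of deviations from the soft and stiff means is given as well, and it was 0.69, 0.62 and 0.55. Most like Cdh2 were Dstn, an actin-depolymerising protein, Pmvk, an enzyme of the mevalonate pathway, and Sema6a, with r of 0.86, 0.86 and 0.85, and 0.69, 0.82 and 0.67 within stiffness. These values describe libraries that share scaling and gel stiffness and carry no test.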

How the data were processed

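Total RNA of mouse E14 ES cells was sequenced by the authors in 18 libraries (6 groups of 3, from the labels), made with a pico-input mammalian kit. Per the study's methods and processing notes, the authors trimmed reads with Trim Galore 0.4.4, aligned them with GSNAP to GRCm38/mm10 and counted them per Ensembl gene with HTSeq. The strand setting is not given in the sources used here. The deposited table holds unnormalised read counts. HTSeq summary lines, 61.5 to 64.0% of each column's sum, and the spike-ins entered neither library sizes nor tests.

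Symbols, biotypes and exon lengths came from GENCODE M21 (GRCm38). Soft80 replicate 1 was left out because its ERCC share exceeded 1.5 times the median share (0.666%), in keeping with the authors' removal of libraries with high ERCC shares. Protein-coding counts passing filterByExpr (minimum count 10) in the remaining 17 libraries were scaled by TMM and fitted with edgeR 4.0.16 (R 4.3.3, robust quasi-likelihood, 1 coefficient per group). The common biological coefficient of variation was 5.35%. P-values were adjusted by Benjamini-Hochberg over all 13438 genes within a contrast. Pairs of libraries of 1 group differed by more than sampling noise (chi-square per degree of freedom 1.81 to 3.02 over 18 pairs), so none was treated as a library deposited more than once. Ratios used counts plus 0.5 and exact permutation in scipy. Log2 CPM for correlations used a prior count of 2. Intervals are 95% and come from the fit.

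The members and the wider and marker lists were chosen with earlier results of these data known. Named genes are the 10 members, the up to 3 called genes of lowest adjusted p in each wider list, and the 3 tested genes of at least 10 CPM with the highest Pearson r to Cdh1 and to Cdh2. Some genes of the wider lists are not reported here by name. Other genes named (further called list genes, overlapping genes, markers, the repressors Snai1, Snai2, Zeb1 and Zeb2, and Grhl1 and Grhl3) fall outside that rule and were chosen after their values were seen. Alternatives were RLE and upper-quartile scaling, DESeq2 1.42.0, no low-count filter beyond 2 counts, all biotypes, all 18 libraries, only the groups compared, a fit without robust estimation and each library left out. Ratios were also computed with prior counts of 0 and 2.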

Additional observations from a re-analysis of the deposited data

Results flagged for a closer look

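Of 26 sets of libraries examined (the 10 genes and the 3 ratios, in soft and in stiff libraries), 1 held a library far from the others by Dixon's test, which chance does in about 1 of 20 sets. Ctnnb1 was at 608 CPM in Soft48 replicate 3, the lowest of the 8 soft libraries, and the gap to the next one was 0.636 of the whole soft range of 608 to 647 CPM. Ctnnb1 was still called higher on soft gels without that library. No gene of the 10 had a soft minus stiff difference that was shown to depend on AHA.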

How the results depend on the processing

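Over 2490 recomputed values (10 genes, 10 contrasts, 8 alternative settings and 17 left-out libraries, where the fit of only the groups compared gives no value averaged over AHA), no called difference changed sign, 53 called values lost their call and 2 uncalled values gained one. The sign changed in 68 values that were called neither before nor after, 59 of them with a library left out. For Cldn4, averaged over AHA, it changed without Soft48 replicate 3, Soft80 replicate 3 or Stiff16 replicate 3.

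With one library left out at a time, 6 to 8 of the 10 genes were called averaged over AHA, 1 to 5 at low, 0 to 3 at mid and 0 to 1 at high AHA. At low AHA the count fell to 2 without Soft16 replicate 1 or 3, to 3 without Soft16 replicate 2 or Stiff16 replicate 1, and to 1 without Stiff16 replicate 3. At mid AHA it fell to 0 without Stiff48 replicate 1 and to 1 without Soft48 replicate 2 or 3 or Stiff48 replicate 2 or 3. At high AHA it fell to 0 without Soft80 replicate 3 or Stiff80 replicate 3, and it was 2 with all 18 libraries. The number of all genes called moved too, with a library left out, from 408 to between 245 and 423 at low, from 384 to between 222 and 424 at mid and from 113 to between 42 and 117 at high AHA, and to 341 at high AHA with all 18 libraries. Between AHA concentrations it moved from 34 to between 2 (without Soft80 replicate 2) and 69 (without Soft80 replicate 3) for high against low and from 9 to between 4 and 12 for high against mid on soft gels, and from 1 to between 0 and 15 (without Stiff80 replicate 1) for high against low on stiff gels. For the interaction it moved from 4 to between 3 and 12 (without Stiff16 replicate 2). For mid against low on soft gels it moved from 0 to at most 7 (without Soft48 replicate 3). For high against mid on stiff gels it moved from 1 to between 0 and 5 (without Stiff80 replicate 1). No contrast of AHA concentrations and no interaction called any of the 10 genes under any alternative run. The number of called genes in the wider lists ranged from 29 to 33 over these alternatives, against 31 in the fit reported. The ratio differences stayed on the same side of the threshold: −0.19 to −0.16 for Jup to Ctnnb1, 0.27 to 0.32 for Cldn4 to Cldn6 and −0.11 to −0.04 for Cdh2 to Cdh1 with a library left out. Why these counts moved was not tested.

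Depth was lowest for Ctnnd1 and Cdh2, with 84 to 143 and 209 to 343 counts per library. No paired analysis was possible because the labels give no replicate numbers, and those used here only name libraries in sample order within a group.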
